A study of Mus musculus with 10 samples.

Results

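Scg5, Stc1, Phactr1, Gcnt2 and Lpar6 are 5 genes for which every mouse given aliskiren lay on the same side of every mouse given losartan. They were picked for that separation from array values of the renal cortex and are 5 of 105 genes that showed it, out of 11486 genes tested. Their differences between the drugs are therefore a description and are given without a test. Both groups were FVB/N mice aged 20 weeks whose kidney mass had been cut down by 2/3 ablation followed by uninephrectomy. In 1 group of 5 mice the renin inhibitor aliskiren was given at 50 mg/kg per day, and in the other group of 5 mice losartan, a blocker of the type 1 angiotensin II receptor, at 500 mg/l. Each drug was given for 6 weeks. Dosing began when 6 weeks had passed since the ablation and 4 weeks since the uninephrectomy. Total RNA of the cortex of each mouse was read on 1 Affymetrix array. Every mouse had reduced renal mass and a drug of the same pathway, so the values speak to aliskiren against losartan and not to the effect of either drug alone.

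The 5 genes have no shared pathway in textbook knowledge. Scg5 encodes 7B2, a chaperone of the secretory pathway that assists the folding of the prohormone convertase encoded by Pcsk2 and inhibits it. Stc1 encodes stanniocalcin, a secreted glycoprotein known in fish as a calcium-lowering hormone and in mammals as a local factor made in the kidney, which also inhibits the protease pregnancy-associated plasma protein A. Phactr1 encodes a protein that binds actin and protein phosphatase 1. Gcnt2 encodes the glycosyltransferase that adds I branches to chains of N-acetyllactosamine. Lpar6 encodes a G protein-coupled receptor for lysophosphatidic acid, and in the RefSeq gene table it lies inside the gene Rb1.

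All values are RMA log2 expression, in which a step of 1 is a doubling. Among the 11486 genes tested with limma, 0 passed an adjusted p of 0.05 for aliskiren against losartan, and 542 genes, 4.72%, had an unadjusted p under 0.05 (573 with the ordinary t statistic, of which 0 passed the adjustment). The 5 and 5 values did not overlap for 105 genes, 0.914% of those tested: 48 of them (0.418%) were higher and 57 (0.496%) lower with aliskiren. Scg5 had the widest gap between the groups of all genes tested, Phactr1 ranked 3, Stc1 5, Gcnt2 28 and Lpar6 42. The gene just inside the rule was Hus1, with a lowest aliskiren value of 9.3889 and a highest losartan value of 9.3888. The gene just outside was Spopl, whose lowest aliskiren value of 7.3055 met a highest losartan value of 7.3058. In cortex RNA, fewer cells of a type and less RNA per cell cannot be told apart.

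Scg5 was lower with aliskiren. Its log2 value was 8.36, 8.74, 8.38, 8.58 and 8.23 in aliskiren mice 1 to 5, against 9.20, 9.03, 9.72, 9.23 and 9.03 in losartan mice 1 to 5. Aliskiren mouse 2 was the highest of its group and still lay 0.29 below the lowest losartan mice, and losartan mouse 3 stood above its own group. The means were 8.46 ± 0.20 with aliskiren and 9.24 ± 0.28 with losartan (SD, n = 5 each), a difference of -0.79 (SE 0.14), or 1.72-fold. Without losartan mouse 3 the difference was -0.67. That mouse was also the highest of all for the urothelial gene Upk1b, at 7.9996, where the aliskiren mice had 5.37 to 6.11 and the other losartan mice 5.31 to 5.72, and for the mean of 4 fat genes, at 11.74. The part of these tissues in its Scg5 value was not tested.

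The stretch around the annotated start of Scg5 is shown because this gene had the widest gap between the drugs. It runs from 250 bases before to 50 bases after the start, from RefSeq on GRCm38.p6, chr2:113829042-113829341, minus strand. Capitals mark TGACG or its reverse complement CGTCA, the core letters of the cAMP response element.
Scg5: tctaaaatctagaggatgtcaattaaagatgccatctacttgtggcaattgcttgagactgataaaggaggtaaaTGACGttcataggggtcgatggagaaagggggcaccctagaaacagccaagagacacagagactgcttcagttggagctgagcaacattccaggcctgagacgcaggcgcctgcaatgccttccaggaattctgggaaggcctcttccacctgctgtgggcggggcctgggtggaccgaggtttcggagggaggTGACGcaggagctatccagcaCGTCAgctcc
This window holds 3 such matches, and 20.81% of the 32851 promoter windows in the table hold at least 1. The window also holds 1 match to the hypoxia response core ACGTG and 1 to the SP1 GC box GGGCGG, found on either strand in 19.62% and 35.66% of all windows. The ACGTG match shares bases with the last of these, and no full cAMP response element TGACGTCA was found.

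Stc1 was lower with aliskiren by the widest margin among the 5 genes. It had 6.43, 6.90, 6.47, 6.51 and 6.08 in aliskiren mice 1 to 5, against 7.18, 7.09, 7.05, 7.80 and 7.59 in losartan mice 1 to 5. Losartan mice 4 and 5 were the highest of the 10, aliskiren mouse 5 was the lowest, and the groups came closest at aliskiren mouse 2 and losartan mouse 3. The means were 6.48 ± 0.29 with aliskiren and 7.34 ± 0.33 with losartan, a difference of -0.86 (SE 0.18), or 1.82-fold. After a further quantile normalization of the deposited values the groups overlapped by 0.01, with a highest aliskiren value of 6.93 and a lowest losartan value of 6.91.

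Phactr1 was also lower with aliskiren, by a smaller step and with tight groups. Its values were 6.19, 6.25, 6.12, 6.21 and 5.87 in aliskiren mice 1 to 5, against 6.43, 6.53, 6.71, 6.44 and 6.55 in losartan mice 1 to 5. Aliskiren mouse 5 was the lowest and losartan mouse 3 the highest. The means were 6.13 ± 0.15 with aliskiren and 6.53 ± 0.11 with losartan, a difference of -0.41 (SE 0.08), or 1.33-fold.

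Gcnt2 was higher with aliskiren and was the most strongly hybridised probe set of the 5 genes. It had 9.75, 9.92, 9.94, 10.01 and 9.80 in aliskiren mice 1 to 5, against 9.43, 9.70, 9.13, 9.38 and 9.45 in losartan mice 1 to 5. Losartan mouse 2 came within 0.04 of aliskiren mouse 1, and losartan mouse 3 was the lowest. The means were 9.88 ± 0.11 with aliskiren and 9.42 ± 0.20 with losartan, a difference of 0.46 (SE 0.10), or 1.38-fold.

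Lpar6 was higher with aliskiren by the smallest margin of the 5 genes. It had 8.64, 8.57, 8.50, 8.74 and 8.70 in aliskiren mice 1 to 5, against 8.35, 8.47, 8.28, 8.33 and 8.47 in losartan mice 1 to 5. Aliskiren mouse 3 lay 0.03 above losartan mouse 2, the nearest mouse of the other group. The means were 8.63 ± 0.10 with aliskiren and 8.38 ± 0.09 with losartan, a difference of 0.25 (SE 0.06), or 1.19-fold. The spread among mice on the same drug put Lpar6 low among the tested genes, with an SD of 0.09 that exceeded that of 18.8% of them, while that of Stc1, 0.31, exceeded 87.0%. A gene of small spread can separate 2 groups with a small step, and a gene of large spread needs a large one.

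**Figure D1:**
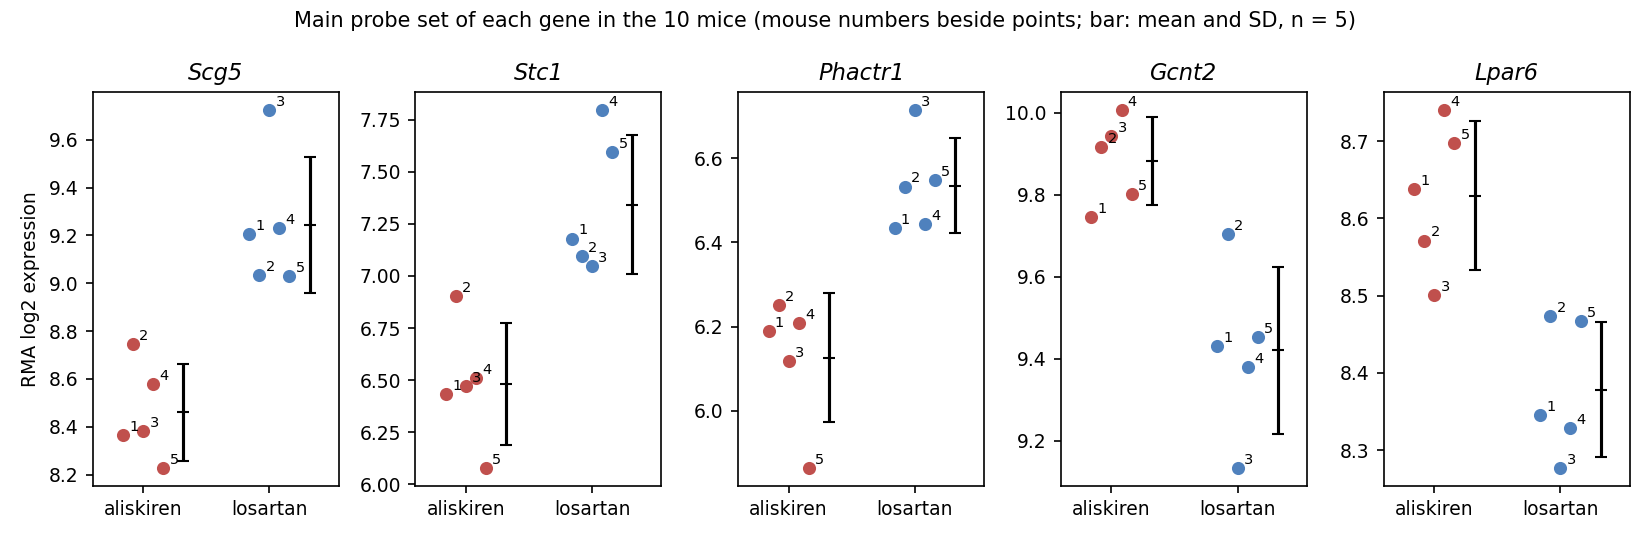
RMA log2 expression (vertical axis, a separate scale in each panel) of the main probe set of each gene, 1 point per mouse with its number, aliskiren in red at the left and losartan in blue at the right. Black bars give the mean and SD of 5 mice. In each panel the red and blue points do not overlap, and the nearest points are 0.29 apart for Scg5 and 0.03 apart for Lpar6.

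The array holds 17 probe sets annotated to these genes. The 5 main ones separate the groups by choice, and 2 of the 12 others did so, where 0.702% of all 45037 probe sets did. Both are Phactr1 sets, and 1 of them is also annotated to another gene. Scg5 and Lpar6 each had 1 probe set, so neither could be read a second way here. For Phactr1, 3 of 5 probe sets separated the groups. The second by level, annotated to Phactr1 and also to the sulfotransferase gene Chst11 so that its gene is uncertain, had 5.53, 5.63, 5.57, 5.53 and 5.50 in aliskiren mice 1 to 5, against 6.10, 5.86, 6.42, 5.88 and 6.15 in losartan mice 1 to 5. Its difference was -0.53, while the main probe set of Chst11 also separated the groups but was higher with aliskiren, by 0.26. Which gene the shared set reads was not tested. The third Phactr1 set had 5.31 ± 0.18 with aliskiren and 5.76 ± 0.16 with losartan, a difference of -0.45. The remaining 2 Phactr1 sets averaged 4.67 and 3.33 over all mice, below the median of all probe sets, 5.53, and differed by 0.08 and -0.14 with overlapping groups. These probe sets come from the same RNA samples, so they repeat the reading and not the mice.

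Gcnt2 had 8 probe sets, and 1 separated the groups. The second by level had 7.594, 7.680, 7.859, 7.998 and 7.686 in aliskiren mice 1 to 5, against 7.67, 7.58, 7.29, 7.27 and 7.72 in losartan mice 1 to 5, and losartan mice 1 and 5 lay within the aliskiren range. Its difference was 0.26, and that of the third set, at a mean of 6.07, was 0.25. The other 5 sets lay below the median of all probe sets and differed by -0.10 to 0.25. Of the 8 sets 6 had a higher mean with aliskiren. The main set and the set ranked 4 by level were made from the same cDNA, per the platform annotation, and differed by 0.46 and 0.06. Averaged over all its probe sets, Gcnt2 differed by 0.17 and the groups overlapped. Stc1's second probe set lay at 3.84 ± 0.11 with aliskiren and 3.99 ± 0.24 with losartan, far below the median of all probe sets, and overlapped. The mean over both Stc1 sets differed by -0.51, and that over the Phactr1 sets by -0.23, each without overlap.

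The annotated starts of Gcnt2 are shown because its probe sets gave different readings and RefSeq lists 3 starts for the gene. Which transcript each probe set reads was not analysed here. The windows, from RefSeq on GRCm38.p6, are chr13:40859518-40859817, plus strand for the first, chr13:40886508-40886807, plus strand for the second and chr13:40917384-40917683, plus strand for the third, each 250 bases before to 50 after a start, with the same core letters in capitals.
Gcnt2 start 1: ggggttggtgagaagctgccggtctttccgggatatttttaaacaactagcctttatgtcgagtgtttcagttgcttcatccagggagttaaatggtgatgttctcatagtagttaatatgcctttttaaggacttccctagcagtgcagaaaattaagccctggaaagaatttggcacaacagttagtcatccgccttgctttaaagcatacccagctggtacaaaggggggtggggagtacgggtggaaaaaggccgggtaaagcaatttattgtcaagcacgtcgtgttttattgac
Gcnt2 start 2: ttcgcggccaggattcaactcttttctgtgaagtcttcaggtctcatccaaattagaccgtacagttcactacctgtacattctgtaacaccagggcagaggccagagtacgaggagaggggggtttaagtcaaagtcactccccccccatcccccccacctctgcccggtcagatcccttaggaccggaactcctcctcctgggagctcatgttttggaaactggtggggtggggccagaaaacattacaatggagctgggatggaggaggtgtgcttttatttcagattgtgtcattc
Gcnt2 start 3: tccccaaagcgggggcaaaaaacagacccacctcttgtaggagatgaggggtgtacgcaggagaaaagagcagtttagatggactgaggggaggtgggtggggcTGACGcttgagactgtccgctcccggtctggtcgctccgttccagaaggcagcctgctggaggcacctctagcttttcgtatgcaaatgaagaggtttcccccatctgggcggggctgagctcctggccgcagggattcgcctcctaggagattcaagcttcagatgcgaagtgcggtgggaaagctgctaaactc
The GC content of these windows was 44.7%, 52.3% and 58.0%, against a median of 52.7% over all windows, so the starts differ in base composition. Among these 3 windows only the third holds TGACG or CGTCA, in 1 copy, and it also holds 1 GC box. The first holds 1 match to ACGTG and 1 to the glucocorticoid receptor core AGAACA, each on the reverse strand, and 18.97% of all windows hold AGAACA on either strand. The second holds none of the 7 motifs searched, which besides those named were the AP-1 site TGACTCA and the TATA box TATAAA. A match of these short letters describes the window and shows no binding.

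**Figure D2:**
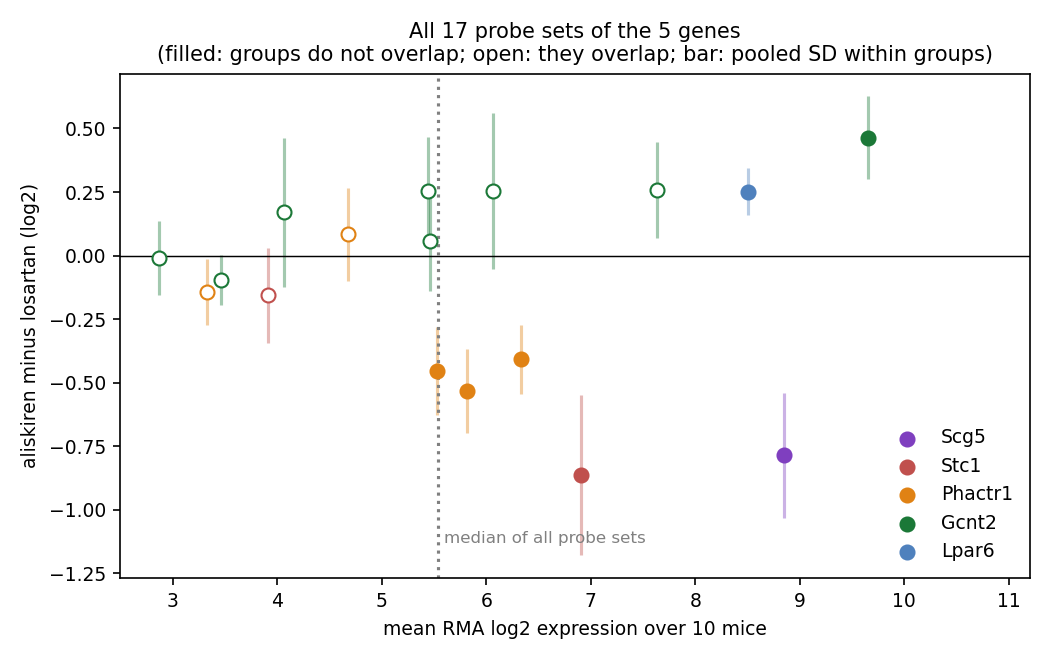
Difference of aliskiren minus losartan (log2, vertical axis) against the mean log2 expression over 10 mice (horizontal axis) for all 17 probe sets, coloured by gene, with bars for the pooled SD within groups. Filled points mark the 7 probe sets whose groups do not overlap, 5 of them the main ones, and the dotted line marks the median of all probe sets, 5.53. No filled point lies left of 5.53 by more than 0.01, and the Gcnt2 sets right of the line at 6.07 and 7.63 are open.

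The partners of each gene in its pathway were read from lists that do not hold the gene itself, and 0 members of these lists passed limma's adjusted threshold or separated the groups (background 0.914%). For Scg5 the list held genes of prohormone processing, granins and the chromosome neighbour Grem1. Of these 18 genes 9 were tested, 4 higher and 5 lower with aliskiren, Grem1 among the lower, with a median difference of -0.0009, against -0.01 over all genes, of which 53.8% were lower. Pcsk2, the partner of 7B2, was not tested. The granin genes Scg3, at 5.50, Chga, at 4.00, Chgb, at 3.83, and Scg2, at 3.33, lay below the level filter of 5.53, as did Pcsk1n at 5.12, Pcsk1 at 4.83 and Vgf at 4.77. Levels of different probe sets are not compared here. Furin, a ubiquitous proprotein convertase, had 9.45 ± 0.08 with aliskiren and 9.28 ± 0.17 with losartan. Mbtps1, the site-1 protease of the Golgi, had 9.48 ± 0.06 and 9.43 ± 0.06 in the same order, and Pcsk6, another convertase, 6.16 ± 0.62 and 5.96 ± 0.14. The adjusted p in limma ran from 0.945 to 0.960 for these 3, and Grem1, also in this list, is described with the chromosome neighbours.

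For Stc1 the list held its paralogue, the insulin-like growth factor axis and renal calcium and phosphate handling. Of 27 genes 23 were tested, 11 higher and 12 lower with aliskiren, with a median difference of -0.03. Calb1, the calcium-binding calbindin of the distal tubule, had 12.43 ± 0.17 with aliskiren and 12.72 ± 0.51 with losartan. The calcium-sensing receptor gene Casr had 7.01 ± 0.13 with aliskiren and 7.13 ± 0.18 with losartan. The calcium pump gene Atp2b1 differed by -0.11 (SE 0.10) and Igfbp4, a binding protein of insulin-like growth factors, by 0.10 (SE 0.09). The adjusted p in limma was 0.948 to 0.949 for these, and 0 of the 23 had an unadjusted p under 0.05.

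For Phactr1 the list held the PHACTR family, protein phosphatase 1 and targets of the actin-regulated transcription factors MRTF and SRF. Of 20 genes 18 were tested, 5 higher and 13 lower with aliskiren, with a median difference of -0.09. The family member Phactr2 had 7.79 ± 0.22 with aliskiren and 7.51 ± 0.23 with losartan, the opposite direction to Phactr1. Ppp1cb, a catalytic subunit of protein phosphatase 1, had 11.58 ± 0.15 with aliskiren and 11.37 ± 0.10 with losartan, while Ppp1ca, another catalytic subunit, differed by -0.11 (SE 0.08). Srf, the transcription factor gene, differed by 0.15 (SE 0.07). Adjusted p in limma was 0.945 to 0.948 for these 4.

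For Gcnt2 the list held enzymes of glycan branching, N-acetyllactosamine chains and blood group antigens. Of 28 genes 16 were tested, 8 higher and 8 lower with aliskiren, with a median difference of -0.0009. Gcnt1, which makes the core branch of O-glycans, had 11.05 ± 0.21 with aliskiren and 10.74 ± 0.23 with losartan. B4galt5, a galactosyltransferase, had 10.79 ± 0.28 with aliskiren and 10.38 ± 0.39 with losartan. Mgat1, which starts complex N-glycans, differed by 0.16 (SE 0.10) and the sialyltransferase gene St6gal1 by -0.32 (SE 0.28), and none of the 4 passed (adjusted p in limma 0.945 to 0.949).

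For Lpar6 the list held the other lysophosphatidic acid receptors, the enzymes that make or degrade the lipid, the G12 and G13 route to RhoA, and Rb1. Of 21 genes 16 were tested, 8 higher and 8 lower with aliskiren, with a median difference of -0.0007. The receptor gene Lpar1 had 5.67 ± 0.24 with aliskiren and 5.94 ± 0.26 with losartan, opposite in direction to Lpar6. Arhgef12, an exchange factor of RhoA, had 10.83 ± 0.12 with aliskiren and 10.66 ± 0.13 with losartan. The lipid phosphatase genes Plpp2 and Plpp1 differed by 0.15 (SE 0.10) and -0.28 (SE 0.19). The adjusted p in limma was 0.945 to 0.948 for these 4, and Enpp2, the autotaxin gene, was not tested.

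The nearest tested genes along the chromosome were read for each of the 5 genes, 2 on either side, and 0 of these 20 neighbours separated the groups. Grem1, which encodes gremlin, a secreted antagonist of bone morphogenetic proteins, lies beside Scg5 on chromosome 2 and had a difference of -0.89 (SE 0.30). It had 6.56, 6.97, 6.31, 7.11 and 7.07 in aliskiren mice 1 to 5, against 6.61, 7.54, 8.27, 8.11 and 7.95 in losartan mice 1 to 5. Only losartan mouse 1 fell among the aliskiren mice. Grem1 had an unadjusted p of 0.0126 and an adjusted p of 0.945 in limma. Arhgap11a, on the other side of Scg5, differed by -0.37 (SE 0.23), with 7.54 and 7.77 in losartan mice 2 and 3 and 6.41 to 6.79 in the aliskiren mice.

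The neighbours other than Grem1 differed by -0.37 to 0.16. Rb1, the retinoblastoma gene that surrounds Lpar6 on chromosome 14, had 9.39 ± 0.15 with aliskiren and 9.30 ± 0.24 with losartan, a difference of 0.09. Edn1, the endothelin gene beside Phactr1 on chromosome 13, differed by -0.21 and stood at 7.91 in losartan mouse 3. Tfap2a, a transcription factor gene beside Gcnt2, differed by -0.26 (SE 0.15), opposite to Gcnt2. The 4 neighbours of Stc1 differed by -0.07 to 0.12.

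**Figure D3:**
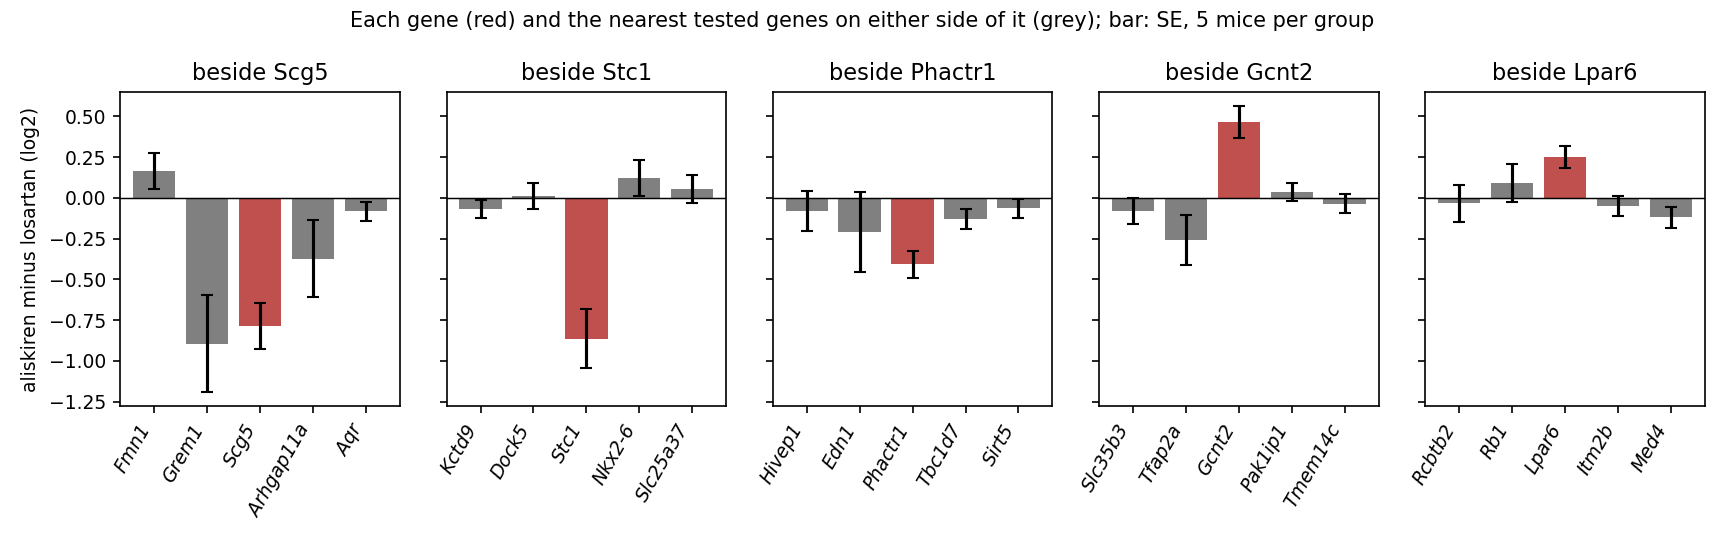
Difference of aliskiren minus losartan (log2, vertical axis) for each of the 5 genes in red and the 2 nearest tested genes on either side of it in grey, in chromosome order, with the SE from limma over 5 mice per group. Grem1 at -0.89 lies beside Scg5 at -0.79, and the other grey bars lie between -0.37 and 0.16.

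Which nephron or injury genes the 5 genes followed was asked among mice given the same drug. Mean levels of 11 marker lists were entered 1 at a time in a limma fit beside treatment, so that the slope does not use the difference on which the genes were chosen. Of 55 slopes 0 passed an adjusted p of 0.05 over all genes, 4 had an unadjusted p under 0.05, and the adjusted p ran from 0.0851 to 1.00. The kidneys differed widely in RNA of injury markers. The mean of 14 tubular injury genes, led by Clu, Krt8 and Krt7, ran from 7.98 to 9.34 in aliskiren mice and from 7.54 to 10.51 in losartan mice, with losartan mouse 3 highest. Its slope passed for 24.8% of all tested genes (1919 genes, 16.7%, rising and 931, 8.11%, falling with injury), and for 12 of the 105 separated genes, 11.4%. The separation rule favours genes whose spread among mice on one drug is small beside their difference between the drugs. The choice of the 5 genes and these slopes are therefore not independent. The SD of the 5 genes within drug groups exceeded that of 18.8% (Lpar6) to 87.0% (Stc1) of the tested genes.

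The slope on tubular injury, in log2 units of the gene per log2 unit of the list, was 0.15 for Scg5 (SE 0.07, limma adjusted p = 0.156) and 0.07 for Phactr1 (SE 0.05, 0.267). It was -0.17 for Stc1 (SE 0.09, limma adjusted p = 0.209), -0.09 for Gcnt2 (SE 0.05, 0.234) and -0.03 for Lpar6 (SE 0.04, 0.648). Scg5 and Phactr1 thus had positive slopes and the other 3 genes negative ones, none past the threshold. Without losartan mouse 3 the slope of Scg5 was -0.04 and the injury list passed for 295 genes, 2.57%. Without losartan mouse 2 the Gcnt2 slope was -0.11 and passed (limma adjusted p = 0.0291), where 25.1% of all genes passed. With each gene averaged over its probe sets, the slopes of Stc1, at -0.21, and Gcnt2, at -0.15, passed (limma adjusted p = 0.0417 and 0.0461). In that fit 23.7% of all genes passed.

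**Figure D4:**
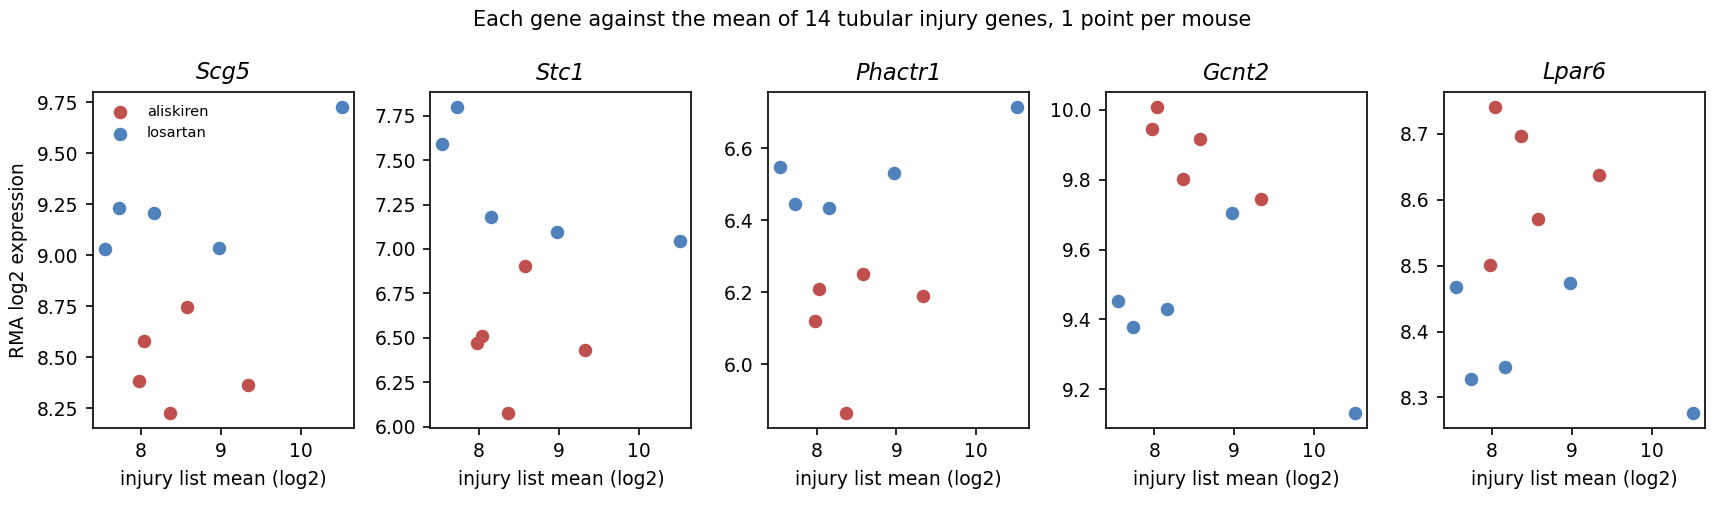
RMA log2 expression of each gene (vertical axis, a separate scale in each panel) against the mean log2 level of 14 tubular injury genes (horizontal axis), 1 point per mouse, aliskiren in red and losartan in blue. The colours stay apart vertically in every panel, losartan mouse 3 lies alone at the right at 10.51, and the slope within a colour passed the test for none of the 5 genes.

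Stc1 had the lowest adjusted p of the 55 slopes, on the macrophage and myeloid list, at -0.22 (SE 0.08, limma adjusted p = 0.0851), where 21.7% of all genes passed (14.8% rising, 6.9% falling). The list ran from 7.06 to 8.57 in aliskiren mice and from 6.25 to 9.26 in losartan mice, and the losartan mice with the lowest list means, 4 and 5, had the highest Stc1. The slope passed after a further quantile normalization, at -0.28 (limma adjusted p = 0.0411), and with probe sets averaged, at -0.22 (0.0147). In these fits 22.8% and 19.3% of all genes passed. Without losartan mouse 2 the Gcnt2 slope on this list, -0.11, passed as well (0.0448), where 22.1% of all genes did. On the fibrosis and matrix list, which passed for 23.8% of all genes (15.9% rising, 7.91% falling), 0 of the 5 genes passed. The Stc1 slope of -0.21 became -0.24 and passed with probe sets averaged (limma adjusted p = 0.0478), where 21.5% of all genes passed. Leaving out losartan mouse 3, this list passed for 275 genes and the macrophage list for 301.

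Scg5 had its steepest slope on the hypoxia and glycolysis list, 1.07 (SE 0.37, limma adjusted p = 0.120), where 2.15% of all genes passed (1.59% rising, 0.557% falling). Without losartan mouse 3 it was 0.30 and the list passed for 0 genes, and without other single mice the list passed for 76 to 1256 genes. On the principal cell list of the collecting duct, where 0% of all genes passed, its slope was 0.67 (SE 0.29, unadjusted p = 0.0459, limma adjusted p = 0.976), and 0.38 without that mouse. Gcnt2 had a slope of 0.31 on the thick ascending limb list (SE 0.14, unadjusted p = 0.0473, limma adjusted p = 0.663), where 0.0609% passed. The podocyte list passed for 0.644% of all genes (0.592% rising, 0.0522% falling) and the endothelial list for 0.0697% (0.0522% rising, 0.0174% falling). The distal convoluted tubule, intercalated cell and proximal tubule lists passed for 0%, and none of these 5 lists passed for any of the 5 genes. These shares move with single mice and with the list's summary. The proximal tubule list passed for 1039 genes, 9.05%, without losartan mouse 4 and for 1441, 12.5%, with the list median. Without losartan mouse 1 the endothelial list passed for 271 genes, 2.36%, and the podocyte list for 376, 3.27%.

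Some list means stood at different levels with the 2 drugs, and their part in the 5 differences was not tested beyond the fits given here. The distal convoluted tubule list, led by Calb1, Wnk1 and Kl, ran from 10.09 to 10.44 in aliskiren mice and from 10.33 to 10.83 in losartan mice. The intercalated cell list ran from 8.21 to 8.50 in aliskiren mice and from 8.44 to 8.69 in losartan mice, and the principal cell list from 8.61 to 9.20 and from 8.71 to 9.28 in the same order. The thick ascending limb list was higher on average with aliskiren, by 0.21, and ran from 9.98 to 10.77 and from 9.58 to 10.41. The fibrosis and matrix list differed by -0.25, with wide ranges of 7.66 to 9.10 and 7.52 to 10.21. With the 11 lists entered 1 at a time, the difference of aliskiren minus losartan ran from -0.80 to -0.62 for Scg5, the smaller with principal cells. It ran from -1.005 to -0.59 for Stc1, the smaller with intercalated cells, and from -0.45 to -0.34 for Phactr1, the smaller with the endothelial list. For Gcnt2 it ran from 0.40 to 0.52 and for Lpar6 from 0.22 to 0.26, each the smaller with the thick ascending limb list. The distal convoluted tubule list holds Slc12a3 and Trpm6 and the intercalated cell list Slc4a9 and Car15, all separated and lower with aliskiren. Kap, of the proximal tubule list, separated and was higher. Such list means are made in part of genes that meet the rule by which the 5 genes were chosen. These fits therefore cannot tell what moved a difference. A list mean stands for a cell type only as far as its genes do.

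**Figure D5:**
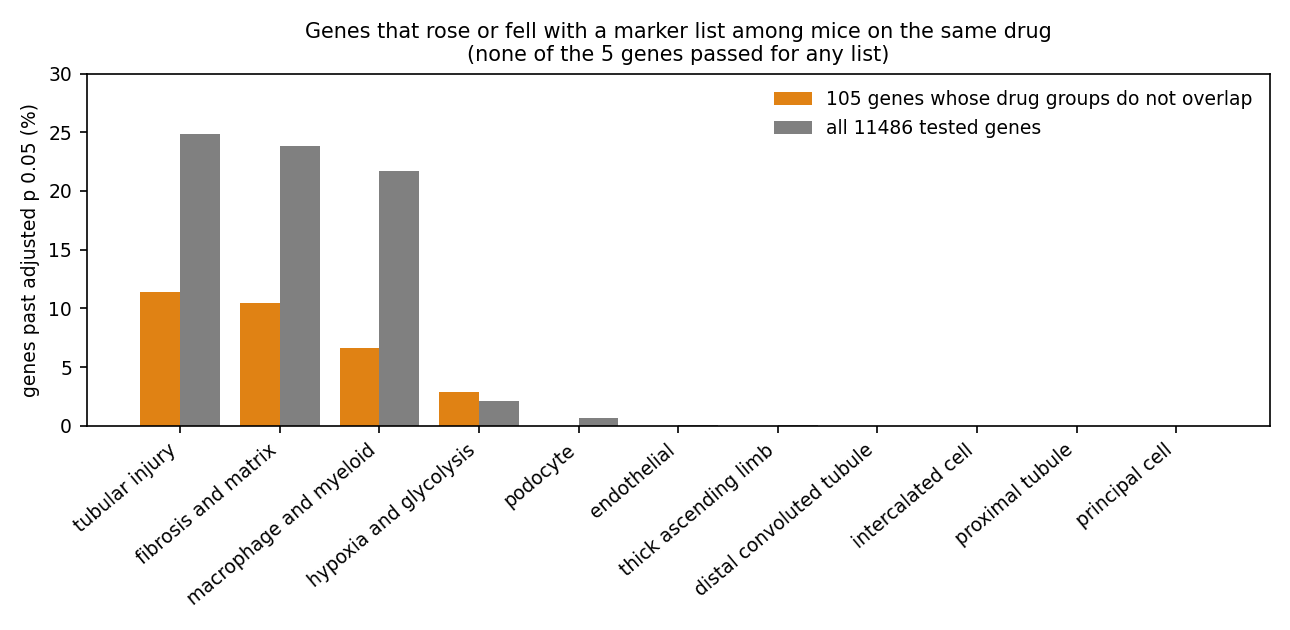
Share of genes (%) whose slope on a marker list passed an adjusted p of 0.05 among mice on the same drug, for the 105 genes whose drug groups do not overlap (orange) and for all 11486 tested genes (grey), by list. The tubular injury list called 11.4% of the first and 24.8% of the second, and 0 of the 5 genes passed for any list.

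The label of the tissue was read from the markers. The proximal tubule list was high in every mouse, from 12.24 to 12.58 in aliskiren mice and from 12.19 to 12.67 in losartan mice. Since Scg5 is known from neuroendocrine cells, adrenal markers were read as well. Of 10 adrenal medulla and neuroendocrine genes 4 were tested, Ddc at 10.51, Slc18a1 at 9.35, Pnmt at 7.05 and Dbh at 7.04 over all mice, while Npy at 5.10, Chga, Chgb, Phox2a and Th at 3.83 to 4.00 lay below the level filter. The 4 averaged 8.48 to 8.67 in aliskiren mice and 8.04 to 8.53 in losartan mice. This mean leaves out the genes below the filter, and whether it reads adrenal tissue was not tested. It was lowest in losartan mouse 3, at 8.04, as was the proximal tubule list mean, at 12.19. Of 8 adrenal cortex genes 3 were tested, Cyp21a1 at 6.93, Nr5a1 at 6.39 and Star at 5.92, and their mean was 6.30 to 6.62 in aliskiren mice and 6.22 to 6.73 in losartan mice. The part of adrenal tissue in the Scg5 values was not tested. Of the urothelial list 2 of 7 genes, Upk1b and Upk2, were tested, and their mean ran from 6.06 to 6.54 in aliskiren mice and from 6.10 to 7.55 in losartan mice. The 4 tested fat genes, led by Fabp4, averaged 6.53 to 9.36 in aliskiren mice and 6.55 to 11.74 in losartan mice, with losartan mouse 3 highest and aliskiren mouse 3 next. Without losartan mouse 3 the differences were -0.94 for Stc1, -0.36 for Phactr1, 0.39 for Gcnt2 and 0.23 for Lpar6.

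Genes whose values ran most like those of the 5 genes were found over all 10 mice after each drug group's mean was subtracted. They are given as a description without a test, since the highest of so many correlations over 10 mice is high by choice. For Scg5 these were Fbxo44 at a Pearson r of 0.94 (Spearman rho 0.93), Tmem218 at 0.93, Hebp2 and Acer2 at 0.92 each, and Nol3 at 0.92. Fbxo44 encodes an F-box protein and Acer2 an alkaline ceramidase. The lowest were Rnft1 at -0.94 and Asb13 at -0.93. Of the principal cell genes 10 of 12 ran with Scg5, led by the sodium channel subunit Scnn1b at 0.86, and of the tubular injury genes 14 of 14, led by the keratin gene Krt7 at 0.83, where 53.0% of all genes had a positive r. The urothelial gene Upk1b followed Scg5 at 0.85 and the 4 fat genes at a median of 0.71, and losartan mouse 3 was the highest mouse for all of these lists. Without that mouse 4 of 14 tubular injury genes and 10 of 12 principal cell genes had a positive r with Scg5, with Krt7 at 0.50, Scnn1b at 0.62, Upk1b at 0.61 and the fat genes at a median of 0.14. Of the adrenal medulla and neuroendocrine genes 0 of 4 had a positive r with Scg5 (median -0.36), and of the adrenal cortex genes 0 of 3 (-0.13). Losartan mouse 3 was the lowest mouse for both list means. Without it the counts were 2 of 4 (0.02) and 1 of 3 (-0.18), where 53.7% of all genes were positive. The single genes named for their likeness were ranked with that mouse included.

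Stc1 was followed most closely by Gprin1 at an r of 0.94 (rho 0.99), Atp5d, a subunit of ATP synthase, at 0.93, Fbxo28 at 0.92, Rbfox3 at 0.92 and Sod1, the cytosolic superoxide dismutase, at 0.91. The lowest were the splicing factor gene Rbm39 at -0.94 and Trim41 at -0.92. A positive r with Stc1 was found for 0 of 14 tubular injury, 0 of 17 fibrosis and matrix and 0 of 15 macrophage genes. It was found for 9 of 11 intercalated cell genes and for 47.9% of all genes. Without losartan mouse 3 these counts were 4 of 14, 0 of 17, 0 of 15 and 10 of 11, where 47.9% of all genes were positive. For Phactr1 the closest were Cuedc1 at 0.94, Mphosph6 at 0.92, Zmat5 at 0.91, the G protein gene Gna11 at 0.91 and Phf10 at 0.90, and the lowest Gimap3 at -0.94 and Zfp341 at -0.93. As for Scg5, 14 of 14 tubular injury genes had a positive r with Phactr1, where 56.2% of all genes did. Without losartan mouse 3 it was 11 of 14, where 60.8% did.

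For Gcnt2 the closest were Ndufa1, a subunit of respiratory complex I, at 0.95, the lysosomal sialidase gene Neu1 at 0.95, Psmg1 and Dedd2 at 0.93 each, and Slc9a3, the sodium-hydrogen exchanger of the proximal tubule, at 0.93. The lowest were Nmral1 at -0.95 and Zbed4 at -0.94. All 10 thick ascending limb genes and 12 of 14 proximal tubule genes had a positive r with Gcnt2, and 0 of 14 tubular injury genes did, where 50.1% of all genes were positive. Losartan mouse 3 was the lowest of the 10 mice for Gcnt2 and for the means of both nephron lists, and the highest for injury. Without it 10 of 10 thick ascending limb genes, 9 of 14 proximal tubule genes and 12 of 14 tubular injury genes had a positive r, where 54.7% of all genes did. For Lpar6 the closest were Tnk1 and Fbxo30 at 0.92, Wapl at 0.90 and Wac and Abhd13 at 0.89. The lowest was Fanca, a gene of the Fanconi anaemia DNA repair pathway, at -0.98, and Rusc1 followed at -0.92. Fanca is itself 1 of the 105 separated genes, with a difference between the drugs of -0.31 (SE 0.08). As for Gcnt2, 10 of 10 thick ascending limb genes and 0 of 14 tubular injury genes had a positive r with Lpar6, where 46.3% of all genes did. Without losartan mouse 3 these were 9 of 10 and 8 of 14, where 48.3% did.

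The 5 genes did not vary together past the threshold among mice on the same drug. Of the 10 pairs, 0 passed an adjusted p of 0.05 by exact permutation of mice within drug groups (14400 arrangements, two-sided), and 1 had an unadjusted p under 0.05. That pair was Scg5 and Phactr1, with a Pearson r of 0.71 (exact permutation p = 0.0218, adjusted 0.218) and a Spearman rho of 0.62 (exact permutation p = 0.0778). Without losartan mouse 3 and aliskiren mouse 2, the mice farthest from the median of Scg5, r was 0.41. Gcnt2 and Lpar6 had an r of 0.49 (exact permutation p = 0.172) and a rho of 0.43 (0.242), with r at 0.04 without losartan mice 2 and 3. Scg5 and Stc1, both lower with aliskiren, had an r of 0.12 (exact permutation p = 0.762) and a rho of 0.30 (0.434). Their r ran from -0.16 to 0.70 when 1 mouse was left out. With losartan mouse 3 left out it was 0.70 (exact permutation p = 0.0396, adjusted 0.396), and without aliskiren mouse 2 as well it was 0.50. The remaining 7 pairs had r between -0.53 and 0.25. Leaving out 1 mouse turned the sign in 4 of these 7: r ran from -0.44 to 0.39 for Phactr1 and Gcnt2, from -0.60 to 0.13 for Scg5 and Gcnt2, from -0.18 to 0.52 for Stc1 and Gcnt2, and from -0.25 to 0.56 for Stc1 and Phactr1.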

How the data were processed

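Per the submitters' processing notes, the authors made the deposited log2 values with RMA in Affymetrix Expression Console 1.1 (background correction, normalization between arrays, 1 value per probe set). An overall difference in RNA amount is therefore no longer visible. Among the 45 pairs of arrays 0 were identical. Arrays have no read depth, so precision is limited by having 5 of them on each drug. Leaving out 64 controls gave 45037 probe sets, of which 34945 had 1 symbol in the platform annotation. Each gene was taken at its probe set of highest mean and entered the tests if it was at or above 5.53, the median over probe sets.

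Fits used limma 3.58.1 in R 4.3.3 (lmFit, eBayes, two-sided, Benjamini-Hochberg over 11486 genes), with treatment alone or treatment and 1 list mean. They were checked on simulated data. Coordinates of promoters are those of GRCm38.p6; the build behind the arrays is not given in the sources used here. The labels give each mouse its own title, and mouse numbers were used as names, not as pairs. Deviations from the group means were correlated over all tested genes between same-numbered mice. Pearson r exceeded 0.1 in 2 of 5 pairs, at 0.42 for mouse 4 and 0.23 for mouse 5, and was -0.23 to -0.03 for the others. Members, lists and named-gene rules (the 5 highest and 2 lowest correlations per gene, the 4 pathway genes of smallest p, 2 neighbours on either side) were chosen with earlier results of these data known. Other genes are named after their values were seen.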

Additional observations from a re-analysis of the deposited data

Results flagged for a closer look

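In these values the highest or lowest mouse of each group of 5 was checked against Dixon's limit. It lay apart from the other 4 in 12 of 84 groups, 14.29%. Chance flags about 1 in 20 independent groups, but these were read on the same 10 mice, so an excess over chance was not tested. Scg5 in losartan mouse 3, at 9.72, was the only flag among the 5 genes. Losartan mouse 3 also stood apart for the fat list mean (11.74), the urothelium list mean (7.55) and the adrenal medulla and neuroendocrine list mean (8.04, low), and for 2 neighbours, Edn1 (7.91) and Rcbtb2 (8.59). Losartan mouse 1 stood apart for the distal convoluted tubule list mean (10.83). Aliskiren mouse 4 did so for the principal cell (9.20) and thick ascending limb (10.77) list means, and aliskiren mouse 1 for the podocyte list mean (7.96) and for Pak1ip1 beside Gcnt2 (9.84). Aliskiren mouse 2 stood apart for Dock5 beside Stc1 (8.25).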

How the results depend on the processing

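The count of genes past the threshold between the drugs was 0 under all alternatives run, the mouse number as a replicate block included (0). With the block, 0 slopes passed and the 5 differences did not move. The 5 differences kept their sign in all 135 values under the alternatives, and 3 moved by more than the SD within groups, all with probe sets averaged: -0.51 for Stc1, -0.23 for Phactr1 and 0.17 for Gcnt2. Many of these values could not have turned. Groups that do not overlap keep their order when mice are left out, and the block cannot move a difference when both groups hold every mouse number. Averaging cannot change Scg5 or Lpar6, which have 1 probe set each. Without 1 mouse the differences ran from -0.86 to -0.67 for Scg5, -0.97 to -0.75 for Stc1, -0.44 to -0.34 for Phactr1, 0.39 to 0.53 for Gcnt2 and 0.22 to 0.28 for Lpar6. With probe sets averaged 4 of the 5 genes separated the groups (not Gcnt2), and 4 after quantile normalization (not Stc1). Separated genes numbered 150 to 295 without 1 mouse (210 and 295 without aliskiren mouse 1 and 2; 161, 265, 259 and 215 without losartan mouse 1, 2, 4 and 5) and 276 without losartan mouse 3 and aliskiren mouse 1, where fewer mice make separation easier. The slopes that passed numbered 4 with probe sets averaged, 1 with quantile normalization, 1 at an adjusted p under 0.10 and 0 to 2 without 1 mouse (2 without losartan mouse 2). All were on the injury, macrophage or fibrosis lists, and 19.3% to 31.3% of all genes passed in the same fits. At the 75th percentile filter Stc1 and Phactr1 were not tested. The relations between pairs passed in 0 cases under all alternatives run. The block was not run for the pairs, since it leaves only 5 paired differences. The differences with a list mean in the fit and the list correlations without losartan mouse 3 were added after the data were seen.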
